A study of Mus musculus with 2 samples.

Results

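The cells described here occupy the most thinly filled stretch of the cell cycle in mouse cortical neurospheres, between late mitosis and G1. They were chosen by a measured value: the position on the cell-cycle circle that the authors estimated for each cell from its own cell-cycle transcripts. A cell belongs to the arc when this angle lies from 4.712 to under 5.498 rad, which is 1.5 to 1.75 on the scale of π rad. The arc held 254 of 12805 cells, or 1.98% (95% exact binomial interval 1.75 to 2.24, counting error only). The neurospheres are free-floating cultures of neural progenitors from wild-type C57BL/6 mice. Their source was the dorsal telencephalon of embryonic day 14.5, and the growth factors supplied were EGF and bFGF at 10 ng/ml each. There were 2 replicate cultures, 1 condition and no treatment, and each culture was read as a single library of 3′ transcript tags. The sources used here do not say whether the cultures came from separate animals, and by the methods they had been passaged several times, so they model cultured progenitors and not the cortex itself. Because the position was made from the same transcripts, all differences along it are descriptions and carry no test.

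At the end of mitosis the anaphase-promoting complex, a ubiquitin ligase, marks cyclin B and securin for destruction, phosphatases undo mitotic phosphorylation, and the nuclear envelope closes around the separated chromosomes. Many of the transcripts that encode the mitotic machinery are made in G2, when the transcription factors B-Myb and FoxM1 act on them, and are cleared after division. CENP-A, the histone H3 variant that marks centromeres, is loaded onto chromatin mainly in early G1, after the division in which its transcript is abundant.

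Cells of the arc were rare in both cultures. Culture 1 had 64 of 5748 cells there, 1.11% (0.859 to 1.42), and culture 2 had 190 of 7057, 2.69% (2.33 to 3.10). In each culture this was the lowest share among 8 arcs of equal width. The arc before it, from 3.927 rad, held 85 cells in culture 1 and 278 in culture 2, and the arc after it, up to 6.283 rad, held 1788 and 3149. When each arc was divided into 4 equal steps, the fewest cells lay in the second step of the sparse arc, with 10 in culture 1 and 38 in culture 2. From there the numbers grew to 23 and 81 cells in the first step of the arc after, and to 1209 and 1840 in its last.

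**Figure D1:**
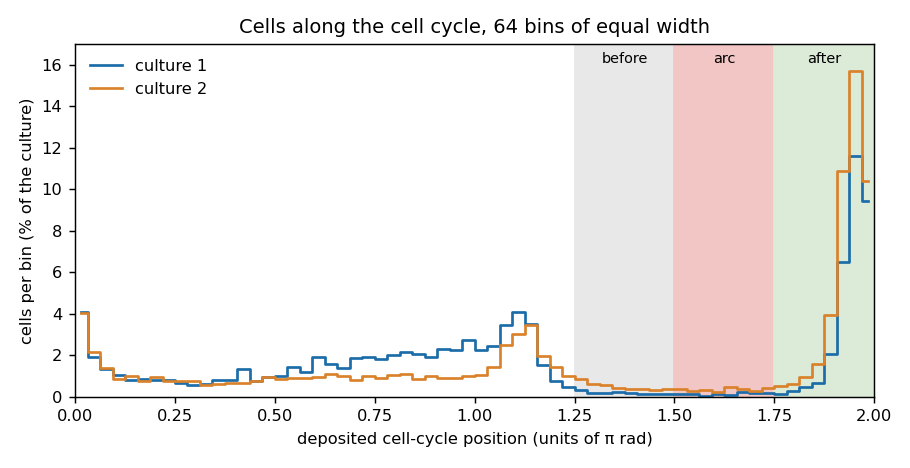
Share of each culture's cells (%) in 64 equal bins of the deposited cell-cycle position (π rad), with the arc before, the sparse arc and the arc after shaded. Both cultures run along the bottom of the axis from 1.25 to 1.75 and climb steeply only beyond it, where 38.6% of all cells lie.

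The bounds cut a continuous distribution. In the 0.05 rad below the lower bound Cenpa had a mean level of 2.24 in 4 cells of culture 1 and 2.79 in 12 cells of culture 2, and in the 0.05 rad above it 2.35 in 3 cells and 2.72 in 17. At the upper bound it was 2.38 in 7 cells and 2.33 in 17 just inside, and 2.79 in 5 cells and 2.03 in 22 just outside. Levels here and below are means over cells of log2(value + 1), where the value is the authors' depth-normalized expression. Of the cell barcodes, 48 occurred in both cultures, and 0 of them lay in the arc.

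Cells of the arc held few transcripts. Their median total was 14812 unique molecular identifiers (UMIs) per cell in culture 1 and 12388 in culture 2. The arc before had 14111 and 11876, and the arc after 18438 and 13991. On the log2 scale the mean total in the sparse arc was 0.09 and 0.07 above the arc before, and 0.31 and 0.09 below the arc after. Both neighbouring differences therefore had the same sign in each culture, but the step up into the arc after was unequal between them. The 2182 cells of the arc from 3.142 to 3.927 rad, where 80 of 97 mitotic genes had their highest mean of the 8 arcs in both cultures, had medians of 20521 and 17815 UMIs.

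**Figure D2:**
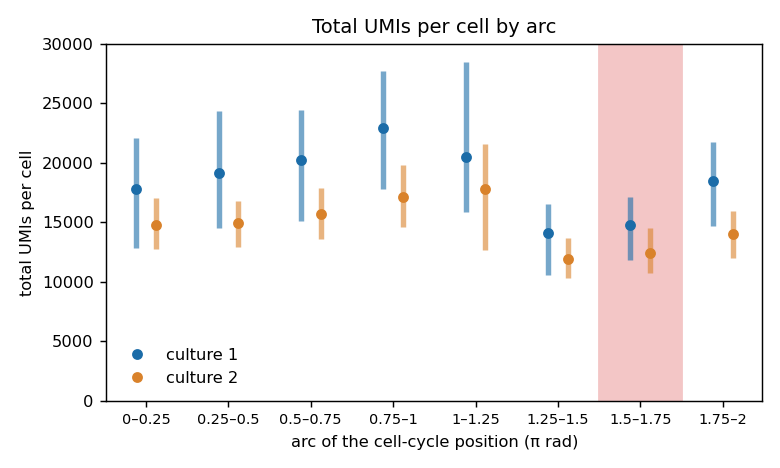
Total UMIs per cell in the 8 arcs of the cell-cycle position, with medians as points and the quartiles as bars, for each culture. The shaded sparse arc has medians of 14812 and 12388, just above the arc before it and below all the others.

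The authors' stage calls, made from the same values, did not place these cells in 1 stage. Seurat's calls put 137 of the 254 cells in G1 (53.9%, 47.6 to 60.2) and 112 in G2M (44.1%, 37.9 to 50.4), against 94.5% G2M in the arc before and 99.5% G1 in the arc after. The cultures were unlike each other in this. G2M made up 21.9% of the arc in culture 1 (12.5 to 34.0) and 51.6% in culture 2 (44.2 to 58.9). Along the 4 steps the G2M share went from 53.3% to 20.0%, 11.8% and 9.09% in culture 1, and from 82.6% to 60.5%, 47.4% and 20.4% in culture 2, so the change of call fell inside the arc in each. Cyclone called 246 of the cells G1 (96.9%). The 5-stage Schwabe calls put 109 cells in M.G1 (42.9%), 52 in G2.M (20.5%) and 5 in G2, left 88 without a stage (34.6%), and put none in G1.S or S, which at 254 cells allows a share of up to 1.44%. How far free RNA in the droplets enters these calls was not tested.

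Cenpa, which encodes CENP-A, stayed high across the arc. The gene lies at chr5:30666777-30674830 on the plus strand of GRCm38. Its mean level was 2.37 in culture 1 and 2.41 in culture 2, with medians over cells of 2.46 and 2.52. In the arc before, the means were 2.95 and 2.79. In the arc after they were 0.28 and 0.39. The sparse arc was thus 0.58 and 0.39 lower than the arc before, and 2.09 and 2.02 higher than the arc after, the largest excess over the arc after among all genes by the ranking used here. Cenpa was detected in 64 of 64 cells of culture 1 and in 184 of 190 of culture 2 (96.8%, 93.3 to 98.8). In the cells from 0 to 0.785 rad, where the transcript is low, it was detected in 14.3% and 24.8% of cells although their median depths of 17834 and 14776 UMIs were higher. Those shares are given for comparison and are not a floor, since the last step of the arc after had 11.2% and 16.4%.

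The steps show where Cenpa was lost. Within the sparse arc it moved from 2.66 to 2.36 in culture 1, with 2.19 as its lowest step, and from 2.59 to 2.16 in culture 2. In the first step of the arc after it was still 2.01 and 1.97, and in the next step 1.51 and 1.30. It then dropped to 0.36 and 0.44. Standard errors over the cells of a step were at most 0.19 from the sparse arc onward. Most of the drop therefore lay beyond the sparse arc in both cultures.

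Arl6ip1, which encodes a membrane protein that shapes the endoplasmic reticulum, behaved likewise from a higher floor. It lies on the minus strand at chr7:118118891-118129662. Its mean was 3.77 in culture 1 and 3.42 in culture 2, against 4.14 and 3.76 in the arc before and 2.42 and 1.94 in the arc after. The differences were 0.37 and 0.34 below the arc before and 1.34 and 1.48 above the arc after. Unlike Cenpa it was never near 0: 97.9% and 80.6% of the cells in the arc after still had it. Its level held at 3.79 and 3.40 in the first step of the arc after, and reached 2.31 and 1.80 in the last.

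**Figure D3:**
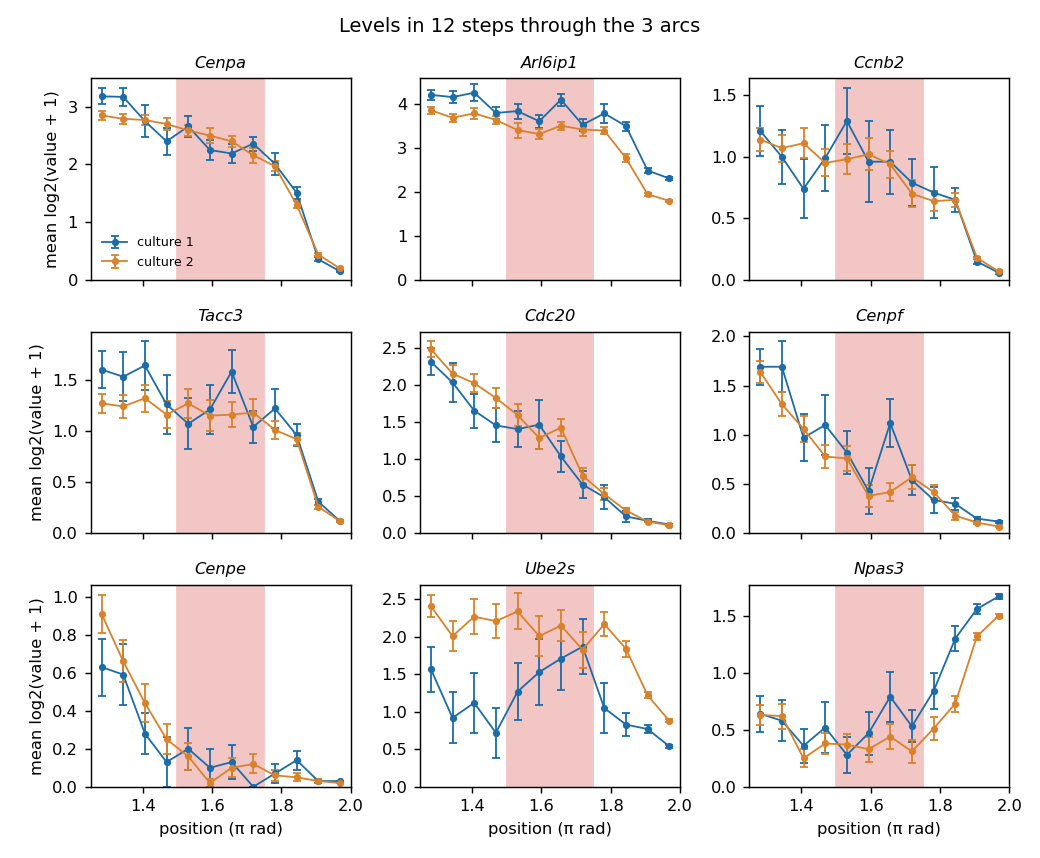
Mean log2(value + 1) of 9 genes in 12 equal steps through the 3 arcs (position in π rad), with the sparse arc shaded, points for each culture and bars for the standard error over the cells of a step. Arl6ip1 and Tacc3 stay up across the shaded arc, as does Cenpa with a small decline. Ccnb2 and Cdc20 end it lower than they began. Cenpf is uneven within it, Cenpe is already low, and most of the climb of Npas3 lies beyond it.

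A list of 112 mitotic genes was followed through the arc, of which 97 were analysed. A difference was called when it was at least 0.25 on the log2(value + 1) scale in the same direction in both cultures. By this rule 23 of the 97 were lower in the sparse arc than in the arc before, against 0.356% of all 10666 genes, and 0 were higher. Against the arc after, 28 were higher, beside 1.25% of all genes, and 0 were lower. The median difference over all genes was 0.00 from the arc before and at most 0.01 in size from the arc after. Since the position is built from such genes, these counts describe the arc and do not test it. Among them 13 genes met both conditions, Cenpa, Cenpf, Ccnb1, Cdk1, Cdc20, Ube2c, Birc5, Cdca8, Arl6ip1, Tpx2, Racgap1, Hmgb2 and Rangap1, and so lay between their neighbours.

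Across the 3 arcs 44 mitotic genes fell by at least 0.25 in both cultures, beside 2.01% of all genes. For each, the share of that fall still to come was the level in the sparse arc above the arc after, as a percentage of the level in the arc before above the arc after. The median share remaining was 53.2% in culture 1 (quartiles 39.5 and 73.9) and 59.8% in culture 2 (38.7 and 77.1). At least 50% remained in both cultures for 24 genes, under 25% for 2, and 18 lay between or were split. Between the cultures the shares had a Pearson r of 0.70 over the 44 genes, which share cells and depth and are not independent. The 53 mitotic genes without such a fall included 34 whose level in the arc before was already under 0.25.

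To set these levels against the peak of the mitotic transcripts, the excess over the arc after was also expressed as a percentage of the excess in the arc from 3.142 to 3.927 rad. That arc is called the mitotic peak here because 80 of the 97 mitotic genes had their highest mean in it in both cultures. The paper places the end of G2 around π, its lower bound, so the name refers to the transcripts and not to a stage. The percentage of the peak excess was added after the values had been seen. It could be formed for 75 mitotic genes with a peak excess of at least 0.5 in both cultures. In both cultures 13 genes kept at least 50% of their peak excess in the sparse arc, 7 kept 25% to under 50%, and 47 kept under 25%, of which 27 kept under 10%. Most of the 75 transcripts had thus lost the larger part of their peak excess by the sparse arc.

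**Figure D4:**
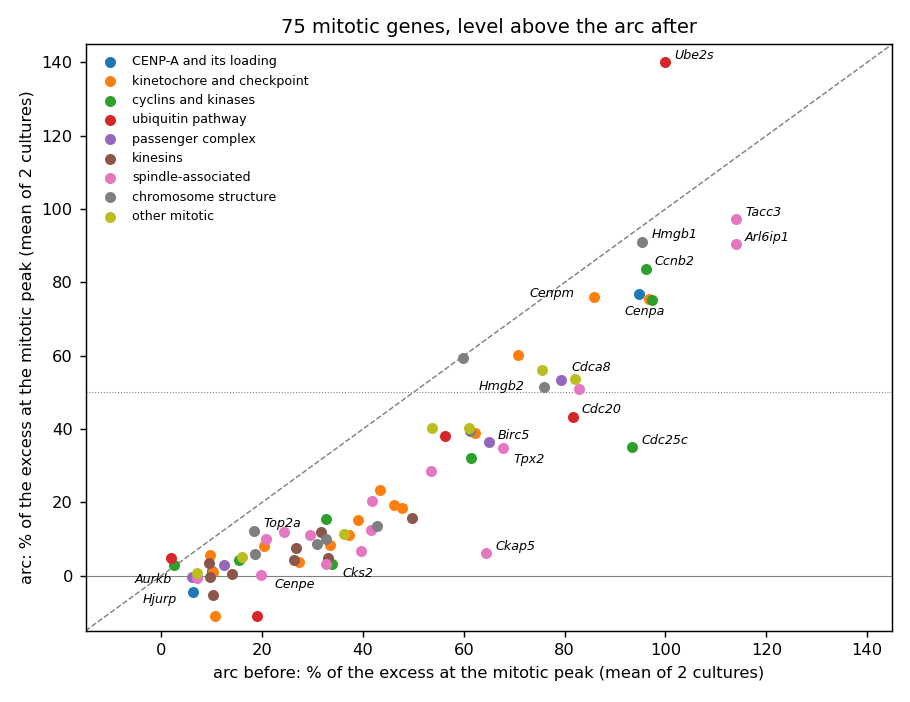
Excess of 75 mitotic genes over the arc after, as a percentage of their excess at the mitotic peak, in the arc before (horizontal) and in the sparse arc (vertical), as means of the 2 cultures and coloured by role. Most points lie under the dashed line of equality, and the genes above the dotted line at 50% form a group at the upper right that runs from Cdca8 and Hmgb2 to Tacc3, Arl6ip1 and Ube2s.

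Centromere and kinetochore genes fell into separate groups. Beside Cenpa, 3 genes of inner kinetochore proteins persisted, while Cenpn, of the same group, was at 0.11 and 0.12 with 13.0% and 17.6% of its peak excess. Cenpm had 1.56 and 1.39 in the sparse arc against 1.57 and 1.65 before and 0.42 and 0.48 after. Cenpw had 1.10 and 1.26 against 1.48 and 1.35 before and 0.36 and 0.48 after. Cenpq had 0.69 and 0.74 against 0.78 and 0.85, and 0.15 and 0.14. In contrast, Cenpe, the kinesin that links kinetochores to microtubules, was at 0.10 in each culture, down from 0.46 and 0.64, with 14.4% and 12.4% of its fall remaining. Cenpf went from 1.44 and 1.29 to 0.74 and 0.53, and Spc25, a subunit of the NDC80 complex, from 0.66 and 0.87 to 0.22 and 0.42. Hjurp, the chaperone that loads CENP-A, was at 0.12 and 0.13, although its level at the mitotic peak was 0.95 and 1.0. Of the 19 kinetochore and checkpoint genes listed, 18 were measured. Of these 3 were lower than before (16.7%, beside 0.356% of all genes) and 5 higher than after (27.8%, beside 1.25%). The checkpoint gene Mad2l1 was among the latter, at 0.47 and 0.39 against 0.08 in each culture after. Several of the 18, such as Ndc80 at 0.07 and 0.09 and Ttk at 0.03 and 0.08, were under 0.25 in the arc before and could not be called lower.

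The B-type cyclins parted. Ccnb2 was level with the arc before, at 0.98 and 0.90 against 1.02 and 1.08, and had 0.11 and 0.15 in the arc after. Ccnb1 went from 1.57 and 1.50 to 0.87 and 0.84, and to 0.11 in each culture after. Relative to the mitotic peak, Ccnb2 kept 80.0% and 87.4% of its excess and Ccnb1 29.4% and 34.9%. Cdkn3, a phosphatase that acts on cyclin-dependent kinases, kept 65.9% and 84.6%. Cdk1, their kinase partner, kept 12.1% and 19.1%, and Cks2, a small subunit of the kinase complex, 3.22% and 3.06%. Cdc25c, a phosphatase that switches the kinase on, had 94.9% and 92.0% of its peak excess in the arc before and 21.0% and 49.1% in the sparse arc.

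Transcripts of the ubiquitin pathway were also spread. Cdc20, the mitotic activator of the anaphase-promoting complex, had the largest fall from the arc before among all genes by the ranking used here, from 1.96 and 2.20 to 1.06 and 1.27, and reached 0.14 and 0.15 after. It was detected in 62.5% and 71.6% of cells, against 89.4% and 92.4% before. Ube2c, the ubiquitin-conjugating enzyme that starts the chains, went from 1.87 and 1.96 to 1.37 and 1.40 and then 0.23 and 0.29. Ube2s, which extends the chains, was not lower in both cultures. It was 0.47 above the arc before in culture 1, at 1.63 against 1.16, and 0.16 below in culture 2, at 2.08 against 2.25. Its excess over the arc after was 1.01 in each. Its shares of the peak, 200% and 80.3%, rest in culture 1 on a peak of only 1.12. The other subunits and activators moved little: Fzr1, the activator that takes over in G1, was at 0.40 and 0.36 against 0.59 and 0.56 before, and Cdc16, a core subunit, at 0.99 and 0.77 against 0.99 and 0.76.

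The chromosomal passenger complex, the Aurora B kinase module that moves from centromeres to the spindle midzone, showed the same split within 1 complex. Cdca8, which encodes borealin, was at 1.49 and 1.52 against 2.05 and 2.28 before and 0.13 and 0.16 after. Birc5, which encodes survivin, was at 1.04 and 1.14 against 1.88 and 1.72 before and 0.17 and 0.22 after. Incenp, the scaffold, was at 0.12 and 0.08 against 0.17 and 0.24 before, and Aurkb, the kinase, at 0.01 and 0.04 against 0.05 and 0.11 before. Both were thus already low in the arc before, from 1.29 and 1.14 and from 0.93 and 0.91 at the mitotic peak. Aurkb was detected in 1 of 64 cells (1.56%, 0.0396 to 8.40) and 6 of 190 (3.16%, 1.17 to 6.75). The arc after had 3.36% and 1.87%, so the sparse arc lay below it in culture 1 and above it in culture 2, with intervals that held both values.

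Kinesin genes were mostly low, and spindle-associated genes were spread. Of 12 mitotic kinesins 1, Kif22, was lower than in the arc before (8.33%, beside 0.356% of all genes), at 0.19 and 0.29 against 0.62 and 0.69. Against the arc after 0 were higher, beside 1.25% of all genes. Kif23, Kif20b, Kif2c and Kif18a lay between 0.01 and 0.08 in the sparse arc, and between 0.05 and 0.25 in the arc before. A gene under 0.25 in the arc before cannot be called lower than it, and most of the kinesins were that low in at least 1 culture. Of 19 spindle-associated genes, 10 fell across the 3 arcs by the rule (52.6%, beside 2.01% of all genes). In the sparse arc 5 of them were lower than before (26.3%, beside 0.356%), and 5 of the 19 were higher than after (26.3%, beside 1.25%). Tacc3, which stabilises spindle microtubules, was among the latter: at 1.22 and 1.19 it stood against 1.53 and 1.25 before and 0.21 and 0.23 after, and kept 84.2% and 110% of its peak excess. Racgap1, a midzone component needed for cytokinesis, went from 1.64 and 1.44 to 1.0 and 1.02, and Tpx2, an activator of Aurora A, from 1.45 and 1.66 to 0.79 and 0.89. Among the spindle-associated genes Ckap5 was the least alike between cultures, with -15.2% and 35.5% of its fall remaining. Anln, Cep55 and Ect2, which act in cytokinesis, were at 0.06 or less.

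Genes of chromosome structure differed within their families. Hmgb1, which encodes an abundant DNA-bending protein, hardly changed from the arc before, 4.77 and 4.49 against 4.83 and 4.53, and had 3.53 and 3.50 in the arc after. Hmgb2 went from 3.52 and 3.87 to 2.63 and 2.99, and then to 0.84 and 1.0. The condensin subunits Smc2 and Smc4 were at 0.54 and 0.46 and at 0.61 and 0.55, having been 0.92 and 1.03 and 1.01 and 1.0 before. Ncaph2, another condensin subunit, was higher than in the arc after, at 0.92 in each culture against 0.60 and 0.57, and kept 60.7% and 57.9% of its peak excess, against 47.4% and 55.7% for Hmgb2. Top2a, the topoisomerase that separates sister chromatids, had already lost most of its level of 2.50 and 2.64 at the peak, with 0.54 and 0.65 before and 0.41 and 0.47 in the sparse arc. Mki67, whose product coats mitotic chromosomes, went from 0.71 and 1.08 to 0.24 and 0.44.

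Per cell, the 97 mitotic genes were counted by detection. Cells at the mitotic peak had a median of 72 detected genes in culture 1 and 66 in culture 2, those of the arc before 37 in each, and those of the sparse arc 29 and 28, with a range of 19 to 48 and 18 to 52. Cells of the arc after had 18 and 15, although their median depth was higher than that of the sparse arc. The arcs overlapped, since single cells of the arc after had up to 50 and 49.

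Most genes that carry out mitotic exit were not called different from a neighbouring arc, which also holds for genes in general. Of 28 listed genes for exit phosphatases, the nuclear envelope and abscission, 24 were measured. By the rule 0 were lower than in the arc before, beside 0.356% of all genes, and 0 were higher than it, beside 0.00938%. At such shares 0 calls among 24 genes is not a result about them. Against the arc after 3 were higher (12.5%, beside 1.25% of all genes). Lmnb1, which encodes lamin B1, was at 1.97 and 1.58 against 2.26 and 1.82 before and 0.50 and 0.48 after. Tmpo, which encodes lamina-associated polypeptides, was at 1.07 and 1.04 against 0.45 and 0.48 after, and Ppp1cc, a catalytic subunit of protein phosphatase 1, at 1.66 and 1.57 against 1.39 and 1.25. Ppp2ca, the catalytic subunit of protein phosphatase 2A, was level throughout, at 2.98 and 2.81 against 2.91 and 2.83 before and 2.88 and 2.69 after.

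A pair of the D-type cyclins were below their level in the arc after. Ccnd2, a D-type cyclin that drives G1 progression, was at 3.96 and 3.86 in the sparse arc, as in the arc before at 3.95 and 3.87, and was 0.65 and 0.80 lower than in the arc after. Ccnd1 was 0.25 and 0.45 lower than in the arc after, and Cdkn1a, which encodes the kinase inhibitor p21, 0.49 and 0.33 lower. Ccnd3 was not called, at 0.55 and 0.76 against 0.71 and 0.81. Ccnd1, Ccnd2 and Cdkn1a were the 3 of 42 measured G1 and S-phase genes that were lower than in the arc after, beside 0.469% of all genes. Cdkn1a differed between the cultures on the other side: it was 0.59 above the arc before in culture 1 and 0.03 above it in culture 2.

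Some of the transcripts used in DNA replication were still present, and others were not. Of the 42 genes, 9 were higher in the sparse arc than in the arc after (21.4%, beside 1.25% of all genes): Mcm5, Mcm7, Tipin, Rrm1, Rrm2, Tyms, Gins2, Pclaf and Dut. Rrm2, a subunit of ribonucleotide reductase, was at 1.30 and 1.40 against 0.36 in each culture after, and Pclaf, which binds the sliding clamp PCNA, at 1.49 and 1.84 against 0.35 and 0.47. Both were also lower than in the arc before, at 1.74 and 1.91 and at 2.12 and 2.25, while the other 7 were not. Further members of the 42 were low in the sparse arc. Tk1 was at 0.10 and 0.14 against 0.45 and 0.38 before, and Hells at 0.10 and 0.05 against 0.26 and 0.32. Cdc6 was at 0.01 in each culture, against 0.06 and 0.03 before.

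Over all 10666 genes, few distinguished the arc from its neighbours. No gene was higher than in both, and 1, Kxd1, a component of the lysosome-positioning BORC complex, was lower than in both: 3.50 and 3.53 against 3.76 and 3.78 before and 3.98 and 4.03 after. A single gene, 0.00938% of all, was higher than in the arc before, namely Vav3, a guanine nucleotide exchange factor, at 1.31 and 1.03 against 0.82 and 0.73. Outside the mitotic list, the tubulin-binding Stmn1 stood out in its excess over the arc after, 1.68 and 1.70, and the kinase gene Pbk in being level with the arc before, 1.88 and 1.52 against 1.86 and 1.72. The genes furthest below the arc after were led by Npas3, a transcription factor, at 0.53 and 0.37 against 1.61 and 1.37. Its level in the arc before was alike, 0.55 and 0.51. In the first step of the arc after it was at 0.84 and 0.51, and in the last at 1.67 and 1.50. Most of its climb therefore lay beyond the sparse arc. Where it began is not settled, since culture 1 already had 0.79 in the third step of the sparse arc, where culture 2 had 0.44. Of the genes higher in the sparse arc than in the arc after, 114 were not lower than in the arc before by the rule, and 19 were.

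The identity of the cells was checked with markers. Fabp7, which encodes a lipid carrier of radial glia, was at 6.42 in each culture, and Vim and Nes, intermediate filament genes of neural progenitors, were at 4.86 and 4.81 and at 2.30 and 2.06. None of the 7 measured radial glia genes, Pax6 among them, differed from a neighbouring arc by the rule. Over all genes 0.356% were lower and 0.00938% higher than in the arc before, and 1.25% were higher and 0.469% lower than in the arc after. The absence of calls therefore does not set these 7 genes apart. The labelled tissue is dorsal, yet the dorsal gene Pax6 was detected in 6.25% and 13.2% of the cells and Emx2, added after the values were seen, in 7.81% and 16.8%. Olig2, a gene of oligodendrocyte precursors and ventral progenitors, was detected in 95.3% and 88.4%. It was as frequent in the arc before, at 95.3% and 93.2%, and in the arc after, at 96.9% and 89.8%. Of the 4 measured oligodendrocyte precursor genes the others were rare in the sparse arc. Cspg4 was detected in 10.9% and 12.6% of its cells, Pdgfra in 7.81% and 2.11%, and Sox10 in 1.56% and 0.526%. The neuroblast genes Dcx and Gad1 had means of at most 0.05. The listed microglia, endothelial, blood and mesenchyme genes were not analysed here.

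Promoters of the mitotic genes were searched because these genes move together. The letters sought were TTTGAA, the core of the cell cycle genes homology region bound by the complex that recruits B-Myb and FoxM1, and CCAAT, bound by NF-Y, each on either strand and counted separately where they shared a base, in the 250 bases before to 50 after the RefSeq start. Of the 97 mitotic genes 86 had a promoter in the table. TTTGAA occurred in 53 (61.6%), against 20.2% of 27025 genes, and CCAAT in 63 (73.3%), against 41.1%. Over the 8318 analysed genes with a promoter, the shares were 14.1% for TTTGAA and 43.4% for CCAAT. Among the 13 genes that kept at least 50% of their peak excess, 6 held TTTGAA and 10 CCAAT. Among the 27 that kept under 10%, 21 had a promoter, of which 13 held TTTGAA and 18 CCAAT. The letters are a description of these windows only. Parts upstream of the annotated starts are shown for a gene that persisted without TTTGAA, one that persisted with it and one that fell with it. They are on the minus strand of GRCm38.p6, at chr7:118129663-118129875, chr9:70421555-70421804 and chr4:118437353-118437593, 5′ to 3′, with both motifs in capitals in either orientation.
Arl6ip1: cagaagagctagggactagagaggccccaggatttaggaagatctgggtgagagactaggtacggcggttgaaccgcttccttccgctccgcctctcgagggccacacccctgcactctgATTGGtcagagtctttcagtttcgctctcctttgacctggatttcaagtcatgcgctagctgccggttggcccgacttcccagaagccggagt
Ccnb2: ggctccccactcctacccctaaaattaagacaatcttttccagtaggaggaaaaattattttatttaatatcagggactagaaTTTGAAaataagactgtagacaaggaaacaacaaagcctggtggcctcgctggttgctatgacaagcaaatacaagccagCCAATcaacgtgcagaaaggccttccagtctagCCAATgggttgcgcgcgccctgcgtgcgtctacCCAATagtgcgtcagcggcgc
Cdc20: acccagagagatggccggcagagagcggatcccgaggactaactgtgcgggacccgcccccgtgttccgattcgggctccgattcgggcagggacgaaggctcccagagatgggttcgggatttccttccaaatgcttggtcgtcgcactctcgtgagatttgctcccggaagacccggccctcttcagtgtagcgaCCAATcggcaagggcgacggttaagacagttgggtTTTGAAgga

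Because Cenpa and Arl6ip1 take part in the position, cells were also placed without them. A ridge regression on the other listed cell-cycle genes predicted the deposited angle with a median error of 0.103 rad without Cenpa over all cells, and 0.199 rad over the cells of the arc. It put 96 cells of culture 1 and 180 of culture 2 in the arc, of which 41 and 125 had been there. In these cells Cenpa had 2.51 and 2.31, against 3.24 and 2.80 in the arc before and 0.29 and 0.39 in the arc after. Arl6ip1, placed without itself, had 3.84 and 3.41, against 4.08 and 3.77 before and 2.44 and 1.95 after. Here the difference of Arl6ip1 from the arc before was -0.24 in culture 1 and -0.36 in culture 2, so by the rule it was no longer lower. The regression was fitted to the deposited angle, to which both genes contributed, so these values are not independent of it. Over the mitotic genes, the median share of the fall remaining was 45.0% and 48.4% when each gene was left out in turn, against 53.2% and 59.8% above. The genes with a fall were chosen anew after this placement, so these medians need not cover the same genes.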

How the data were processed

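Single-cell 3′ RNA-seq of 2 neurosphere cultures was used as deposited. The authors quantified spliced reads with Alevin of Salmon 1.3.0 on GRCm38, removed shallow cells, outliers and likely doublets, and removed mitochondrial and rarely expressed genes. As deposited, expression is a signal already scaled by the authors to the depth of each cell. The deposited UMI totals add up estimated counts over genes, and the deposited position (another unit, an angle in rad) and stages are the authors' own, the position from data integrated over the cultures with Seurat 3.2.2. The labels name the version 2 chemistry of the 10x kit, and the methods name a later one. Gene locations came from GENCODE M21, and 10662 of 10666 gene identifiers matched a symbol there.

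From these values, means of log2(value + 1) per arc and culture, detection shares and exact 95% binomial intervals were computed with numpy 2.4.6, pandas 2.3.3 and scipy 1.17.1. A difference was called at 0.25 in both cultures. The calling was tested on simulated data. No cell was filtered further. The values are not counts, so cells could not be thinned to 1 depth, and with 2 cultures of 1 condition no test was made. Named genes were Cenpa, Arl6ip1, list members, and the 12 largest and 12 lowest differences from each neighbouring arc, ranked by the smaller of the 2 cultures among genes detected in at least 5% of cells. The members and all lists, 250 genes of which 180 were in the table, were chosen with earlier results of these data known. Alternatives were other arc widths, cells between the depth quartiles of their culture, pseudocounts, averaging, thresholds, filters, left-out genes and single cultures.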

Additional observations from a re-analysis of the deposited data

How the results depend on the processing

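None of the 71 recomputed values reversed, and 54 stayed within the spread between the cultures or, for counts, within 1.5 times. For the differences of total UMIs, Cenpa and Arl6ip1, a single culture always lies within that spread of the mean. Those values were counted among the 54 by arithmetic alone and say nothing about stability. The following are means of the cultures, and each share remaining covers the mitotic genes with a fall in that setting. With the middle 50% of each arc, total UMIs lay 0.05 above the arc before (0.08 in the report's setting), Cenpa 1.80 above the arc after (2.05), Arl6ip1 -0.30 from the arc before (-0.36), and the share remaining was 61.2% (56.5%). In cells between the depth quartiles of their culture these 3 differences were 0.01, 1.98 and -0.31, and the total differed in sign between the cultures, -0.01 and 0.03. A pseudocount of 0.1 gave 4.40 for Cenpa and 1.90 for Arl6ip1 (1.41) above the arc after, -0.40 for Arl6ip1 from the arc before, 51.5% remaining, and 44 mitotic genes lower than before (23). A difference of 0.5 left 8 of those. Taking the log2 of the mean put Arl6ip1 1.20 above the arc after. Leaving each gene out of the position gave -0.30 for Arl6ip1 from the arc before and 46.7% remaining. The cause of these moves was not tested. With 1 culture left out the arc held 64 to 190 cells. Differences were formed within each culture. No paired analysis was possible because there is 1 group, and no test was made on values that the position had used. Depth limits detection of weak transcripts such as Aurkb.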

Other observations

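Beyond the cell-cycle lists, the genes with the largest positive differences from the arc before were small changes in genes of other kinds, and apart from Vav3 none reached 0.25 in both cultures. Gap43, a growth cone protein gene, was at 2.78 and 2.77 in the sparse arc against 2.56 and 2.47 before. The mitochondrial enzyme genes Got2 and Idh3a were at 1.49 and 1.46 against 1.20 and 1.24, and at 2.27 and 2.15 against 2.06 and 1.96. Hnrnpc, which encodes a nuclear RNA-binding protein, was at 2.94 and 2.68 against 2.56 and 2.48, and exceeded the arc after as well, at 2.47 and 2.35. Lgals1, which encodes galectin 1, differed by 0.49 in culture 1 and 0.19 in culture 2.

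Below the level of the arc after, Npas3 and Ccnd2 were followed by genes of several compartments. Atp6v0e, a subunit gene of the vacuolar proton pump, was at 1.58 and 1.77 against 2.24 and 2.22. Hspa5, the chaperone gene of the endoplasmic reticulum, was at 2.36 and 2.0 against 2.79 and 2.36, and Ncan, which encodes the extracellular matrix proteoglycan neurocan, at 1.69 and 1.58 against 2.06 and 1.94. Mxd4, a gene of the MAX-binding repressor family, was at 0.62 and 0.75 against 1.04 and 1.10. Atp6v0e, Hspa5, Ncan and Mxd4 were not called as different from the arc before.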
